A study of Mus musculus with 6 samples.

Results

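The Clk genes, Clk1, Clk2, Clk3 and Clk4, encode the CDC-like kinases, and their listed retained introns were described in nucleus accumbens, the ventral part of the striatum, known for its role in reward. The members were the rows whose Ensembl mouse gene ID maps to these symbols, and all 4 were found among 15939 genes in the deposited catalogues. Nucleus accumbens tissue came from C57BL/6N mice trained in conditioned place preference, a test in which an animal learns to associate a place with an injection. The control group was injected with saline and the other group with morphine, an opioid receptor agonist, with 3 libraries per group and 6 mice named per group. The sources used here do not give the mice behind each library, their age or the morphine dose, so tests measure the spread between libraries, which may be technical.

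CDC-like kinases sit in the nucleus and phosphorylate SR proteins, the serine- and arginine-rich splicing factors that define exons, and so release them from nuclear speckles. Their own pre-mRNAs are textbook cases of intron retention: partly spliced Clk transcripts wait in the nucleus, and skipping of an early exon gives a truncated protein without the kinase domain. Clk1 and Clk4 are the closest pair of the family.

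For each library the authors deposited a list of the ways in which its assembled transcripts differ in first, last, skipped or retained exons and in exon ends, with no usable expression level. A retention event is an assembled exon that runs through 1 intron or several introns which a partner transcript of the same library splices out, so both forms were assembled wherever such an event is listed. Distinct events were counted for each gene in each library, and an event that is not listed was not recorded there, which does not show that the RNA was absent. Libraries listed 54641 to 58007 events in 14121 to 14791 genes, of which 5010 to 7523 were retention events. Read depth is unknown, and in bulk tissue fewer cells of a type and less RNA per cell cannot be told apart. Of 26 markers of accumbens neurons, glia, vessels and ependyma, 25 were listed in all 6 libraries, including all 10 of medium spiny neurons, the main neurons of this region; the endothelial gene Cldn5 was not.

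All 4 genes share a layout of 13 exons in the reference coding transcript used for each, and the retention listed most often lay at the same place in each, in introns 3 and 4 on either side of exon 4. Positions are those of the deposited files and fall on exon boundaries of the GENCODE M21 annotation of GRCm38. The files do not name their build. Exon 4 is 91 bases long in Clk1 and Clk4, 88 in Clk2 and 97 in Clk3. Each of these lengths leaves a remainder of 1 when divided by 3, and the coding sequence up to the end of exon 3 ends on a whole codon in all 4, so leaving out exon 4 shifts the frame in each gene. Exon 4 is printed 5′ to 3′ in capitals, with 20 bases of intron 3 before it and 10 bases of intron 4 after it in lower case, because both retained introns end on it. Sequences were read from GENCODE M21 transcripts, at chr1:58420111-58420231 on the minus strand for Clk1, chr3:89169595-89169712 on the plus strand for Clk2, chr9:57758617-57758743 on the minus strand for Clk3 and chr11:51273058-51273178 on the plus strand for Clk4.
Clk1: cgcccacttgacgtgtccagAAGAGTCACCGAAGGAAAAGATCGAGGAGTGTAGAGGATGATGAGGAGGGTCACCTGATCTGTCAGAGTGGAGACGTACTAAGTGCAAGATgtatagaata
Clk4: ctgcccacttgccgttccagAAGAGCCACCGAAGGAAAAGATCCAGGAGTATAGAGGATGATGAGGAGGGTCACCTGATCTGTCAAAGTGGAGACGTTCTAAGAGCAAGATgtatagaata
Clk2: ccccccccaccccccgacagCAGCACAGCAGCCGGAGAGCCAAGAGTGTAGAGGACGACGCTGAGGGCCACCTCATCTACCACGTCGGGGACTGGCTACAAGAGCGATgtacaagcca
Clk3: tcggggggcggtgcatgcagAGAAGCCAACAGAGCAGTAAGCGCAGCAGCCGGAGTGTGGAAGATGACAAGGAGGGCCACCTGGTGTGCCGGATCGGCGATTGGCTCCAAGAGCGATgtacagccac

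Exon 4 of Clk1 and of Clk4 had the same base at 85 of 91 aligned positions, 93.4% identity, against 73.4% over their whole coding sequences. The other 5 pairs of exon 4 sequences were 60.6% to 67.3% identical, the highest of them Clk2 with Clk3. Clk1 and Clk4 also share the first 10 bases of intron 4. How reads from so similar an exon were divided between Clk1 and Clk4 is not stated, so the skipping of exon 4 in these genes is uncertain in that respect.

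Reading the frame of exon 3 on into the retained intron 3 met a stop codon in every member. In the following runs, which start at the first base of intron 3, the stop codon is in capitals. Clk1 and Clk4 meet it after 6 bases, so that it lies within the splice donor site itself, Clk3 after 36 bases and Clk2 after 60. They lie at chr1:58421077-58421082, chr11:51272023-51272028, chr9:57760788-57760823 and chr3:89168924-89168983.
Clk1: gtaTGA
Clk4: gtaTGA
Clk3: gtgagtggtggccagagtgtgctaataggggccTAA
Clk2: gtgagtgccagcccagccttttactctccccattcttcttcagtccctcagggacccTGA

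With intron 3 spliced and intron 4 kept, the frame of exon 4 met a stop after 62 bases of intron 4 in Clk1, 29 in Clk2, 86 in Clk3 and 80 in Clk4. With exon 4 left out, a stop came 21 bases past the junction in Clk1 and Clk4 and 12 bases past it in Clk2, all within exon 5, and 90 bases past it in Clk3, within exon 6. All 8 introns concerned begin with GT and end with AG. They differ in base composition: introns 3 and 4 were 33.0% and 26.4% G and C in Clk1 and 36.7% and 34.0% in Clk4, but 56.0% and 51.7% in Clk2 and 51.8% and 50.0% in Clk3. Whether these transcripts are translated is not measured here.

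**Figure D1:**
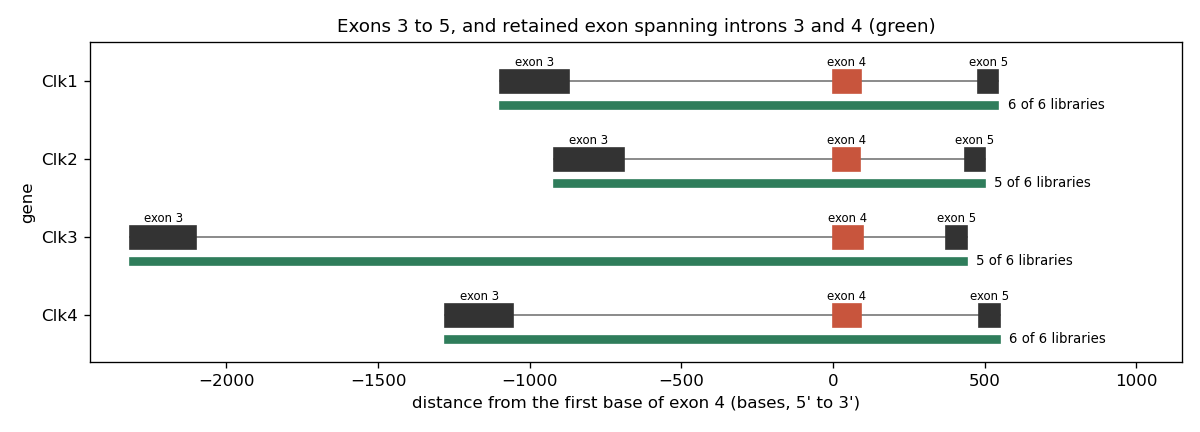
Exons 3, 4 and 5 of each Clk gene to scale, with the distance in bases from the first base of exon 4 on the x axis; the green bar is the stretch from exon 3 to exon 5 kept as a single retained exon, with the number of libraries that list a retention event spanning it. Exon 4 (red) has introns on both sides that are kept together in 6 of 6 libraries for Clk1 and Clk4 and in 5 of 6 for Clk2 and Clk3.

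Clk1, a kinase whose partly spliced nuclear transcript is a standard example of a detained RNA, kept introns 3 (871 bases) and 4 (387 bases) together in a single assembled exon in all 6 libraries. This exon, from 58419667 to 58421308 of chromosome 1 on the minus strand, is annotated, and its multi-intron event had the same boundaries in every library. Among all genes, 41 of 4782 such multi-intron events, 0.857%, were listed in all 6 libraries. Retention of introns 6 and 7 of Clk1 as an exon from 58414590 to 58417383 was listed in 4 libraries, saline replicates 1, 2 and 3 and morphine replicate 6. Morphine replicate 4 listed a longer exon, from 58414590 to 58421308, that keeps introns 3 to 7 together, and morphine replicate 6 listed it beside the shorter ones. By intron, introns 6 and 7 were thus spanned in 5 of 6 libraries, all but morphine replicate 5.

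Clk4 kept introns 3 (1055 bases) and 4 (391 bases) together in all 6 libraries as well, in an exon from 51271800 to 51273626 of chromosome 11 on the plus strand. That exact exon is not annotated. The annotation holds 1 exon with other boundaries that spans the same introns. Against this exon, every library listed both a partner that includes exon 4 and a partner that joins exon 3 directly to exon 5. Skipping of exon 4, from 51273078 to 51273168, was correspondingly listed in all 6 libraries. For Clk1, a skipping event of exon 4 was listed in saline replicate 3, and a partner of the retained exon that joins exon 3 to exon 5 in saline replicates 1, 2 and 3 and morphine replicate 6. Neither was listed for Clk2 or Clk3, although the annotation holds 3 transcripts that skip it for Clk1, 1 for Clk2, 1 for Clk3 and 3 for Clk4.

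Clk2, a kinase also known for a role in liver metabolism, kept introns 3 (691 bases) and 4 (346 bases) in all 6 libraries, but no retention event of it was the same in all 6. The gene has alternative acceptor sites 3 bases apart at the start of exon 3 (89168695 and 89168698 of chromosome 3) and of exon 4 (89169615 and 89169618), and the listed exons differed in which of them they used. Saline replicates 1, 2 and 3 and morphine replicates 4 and 5 listed an exon spanning both introns. Morphine replicate 6 listed them in separate exons, from 89168695 to 89169702 and from 89169615 to 89170115. A first exon of morphine replicate 4, from 89167407 to 89170115, also spanned both introns.

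Clk3 kept introns 3 (2100 bases) and 4 (276 bases) as an exon from 57758284 to 57761040 of chromosome 9 in saline replicates 1, 2 and 3 and morphine replicates 5 and 6. Morphine replicate 4 listed 0 retention events of Clk3. It did list a last exon from 57756583 to 57761040, which runs through both introns and past exon 5, so this stretch was assembled in that library under another event type. Morphine replicate 5 listed a similar last exon from 57756776 beside the retained one. With these last exons counted, introns 3 and 4 of every member were part of a listed exon in all 6 libraries.

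The other introns of the 4 genes were kept less regularly. Of the 48 introns of the 4 reference transcripts, 22 were spanned by a retention event in at least 1 library and 6 in all 6 libraries, and these 6 were introns 3 and 4 of Clk1, Clk2 and Clk4. Clk2 had the most, with 9 of its 12 introns kept somewhere, against 5 in Clk1, 4 in Clk3 and 4 in Clk4. Kept introns of Clk2 ran from 83 to 2967 bases and those of Clk4 from 191 to 4468 bases, so long introns were among them. Introns 1 and 12 were not spanned by a retention event in any library in any of the 4 genes. Listed first exons did run through intron 1 of Clk2 and of Clk3.

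**Figure D2:**
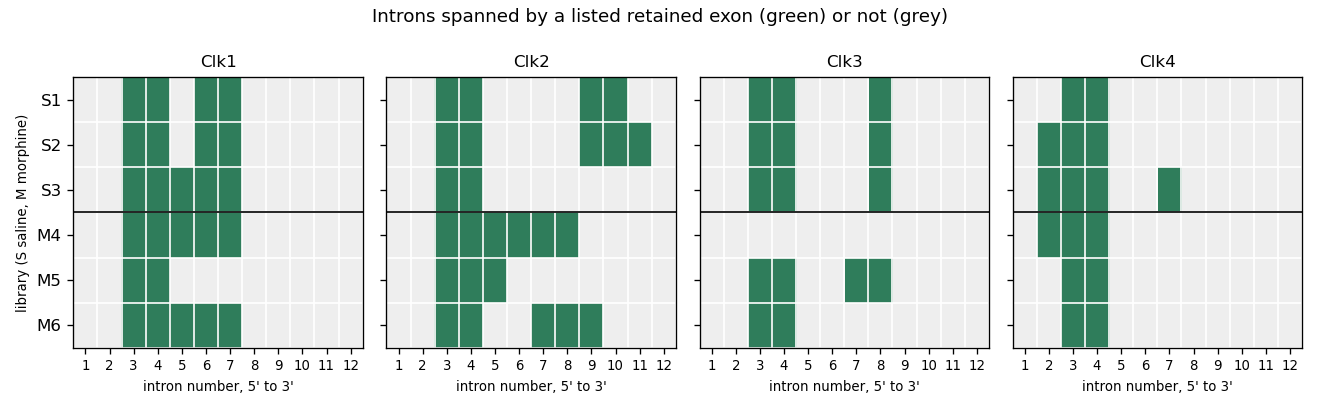
Introns 1 to 12 of each reference transcript (x axis) in saline libraries S1 to S3 and morphine libraries M4 to M6 (y axis), green where a retention event of that library spans the intron. Introns 3 and 4 form an unbroken column in Clk1, Clk2 and Clk4 and are missing only in M4 in Clk3, while the other green cells vary from library to library.

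Beyond introns 3 and 4, the kept introns varied within both groups. In Clk2, saline replicates 1 and 2 kept introns 9 and 10 near the 3′ end, and saline replicate 2 also intron 11, while saline replicate 3 kept none beyond introns 3 and 4. Morphine replicate 4 kept introns 5 to 8, morphine replicate 5 intron 5 and morphine replicate 6 introns 7 to 9, so intron 9 was kept in both groups. In Clk3, intron 8 (100 bases, from 57753401 to 57753500) was kept as an exon from 57753271 to 57753595 in all 3 saline and 0 morphine libraries. This was 1 of 61 distinct retention events of the members, where 0.228% of all retention events were listed that way. No member event was listed in all 3 morphine and 0 saline libraries, against 0.465% of all retention events. Over all event types the counts were 1 and 0 of 108 member events, against 0.345% and 0.321% of all events. Morphine replicate 5 listed a longer exon, from 57753271 to 57754668, that keeps introns 7 and 8, so by intron the count was 3 saline libraries and 1 morphine library. Counted by intron, the 4 genes together kept 13, 15 and 14 introns in the saline libraries and 14, 11 and 14 in the morphine libraries, and the groups overlapped.

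The comparison of morphine with saline addresses whether the number of listed events of these genes differed after morphine conditioning. Libraries with equal counts can still list different events. No member's groups were apart in any class of events: 0 of 4 did not overlap in retention events, where 5.96% of 2986 tested genes did not (4.66% with morphine above and 1.31% with saline above). They were 0 of 4 in all events, where 3.07% of 15040 genes did not overlap (1.64% and 1.43%), and 0 of 4 in the other events, where 2.49% did not (1.17% and 1.32%). Limma, a linear model with a spread shared across genes, called 0 of 4 members in each class at an adjusted p under 0.05. It called 0% of genes for retention, with 196 genes at an unadjusted p under 0.05, 0.638% for all events and 0.672% for the others. At an unadjusted p under 0.05 it had 0 of 4 members for retention, where 6.56% of genes passed, 0 of 4 for all events, where 3.19% passed, and 1 of 4, Clk2, for the others, where 2.91% passed. Of the 96 genes it called for all events, 87 had constant counts within both groups.

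Clk1 had 4, 4 and 5 retention events in saline and 2, 1 and 5 in morphine replicates 4, 5 and 6. The groups overlapped, since morphine replicate 6 was as high as the highest saline library. The means were 4.33 ± 0.577 and 2.67 ± 2.08 (SD, n = 3 each), a log2 ratio of -0.81 with a standard error of 0.54 (limma, adjusted p = 0.776; exact two-sided permutation p = 0.4). Without morphine replicate 5 the log2 ratio was -0.38, and without morphine replicate 6 it was -1.31. The smallest exact p that 3 against 3 libraries allow is 0.1. Its other events were a first exon and a last exon in every library and 3 more in saline replicate 3. The first exon ended at the splice site 58423920 in all 6 libraries.

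Clk4 had 3, 9 and 10 retention events in saline and 4, 2 and 4 in morphine. Saline replicates 2 and 3 were above every morphine library, while saline replicate 1 lay among them. The means were 7.33 ± 3.79 and 3.33 ± 1.15 (SD, n = 3 each), a log2 ratio of -0.93 with a standard error of 0.55 (limma, adjusted p = 0.684; exact permutation p = 0.3). Without saline replicate 1 the log2 ratio was -1.43. Its other events, 7, 16 and 14 against 8, 4 and 9, had the same 2 libraries on top, with a log2 ratio of -0.77 (standard error 0.46, limma adjusted p = 0.912).

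The events of Clk4 in saline replicates 2 and 3 included exons that begin at exon 2, from 51267171 to 51267331, and run on into intron 2. Exon 2 holds the annotated start codon. Skipping of exon 2, joining exon 1 to exon 3, was listed in all 6 libraries and in 1 annotated transcript, which also lacks exon 4. An additional exon between exons 2 and 3, from 51268165 to 51268231, was listed as skipped in saline replicates 2 and 3 and morphine replicate 6. Intron 2, of 4468 bases, was kept in saline replicates 2 and 3 and morphine replicate 4. A short RNA gene, Gm25082, lies within that intron on the same strand from 51270435 to 51270689, so reads from it cannot be told apart from intron 2. BC049762, on the opposite strand, overlaps the 5′ end of Clk4 up to 51263046. Clk4 was listed with 3, 7 and 7 skipping events in saline against 2, 2 and 5 in morphine. Its alternative exon ends were 2, 7 and 5 against 4, 0 and 2. Among these, exon 3 with its reference boundaries, from 51271800 to 51272022, was listed in 5 libraries, beside longer exons that share 1 of its ends. The same assembled exon can count in both classes and in retention.

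Clk2 had 7, 4 and 5 retention events in saline and 16, 4 and 6 in morphine. Morphine replicate 4 stood alone, and the other 5 libraries lay between 4 and 7. The means were 5.33 ± 1.53 and 8.67 ± 6.43 (SD, n = 3 each), a log2 ratio of 0.46 with a standard error of 0.56 (limma, adjusted p = 0.842; exact permutation p = 0.7). Without morphine replicate 4 the log2 ratio was -0.08. Of the 16 events of that library, 1 lay within intron 1 and the others fell on 6 introns of the reference transcript. The acceptor sites 3 bases apart let the same intron count more than once. The same exon was also listed under several event types, as was the one from 89168695 to 89170115 in that library. Counted by intron of the reference transcript, Clk2 kept 4, 5 and 2 introns in saline and 6, 3 and 5 in morphine.

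Outside retention, Clk2 had 4, 5 and 4 events in saline and 8, 5 and 8 in morphine. The groups met at 5, in saline replicate 2 and morphine replicate 5. The log2 ratio was 0.61 with a standard error of 0.22 (limma, p = 0.0442, adjusted p = 0.912; exact permutation p = 0.2, n = 3 each). The extra events of morphine replicates 4 and 6 included 2 and 4 alternative exon ends, of which the other libraries listed 0. Their longer exons were also counted as retention events of the same library. These ran from 89166682 to 89167204 in morphine replicate 4, and from 89168695 to 89169702 and 89173377 to 89175240 in morphine replicate 6. The shorter ones have reference exon boundaries, so these counts are not separate from retention. Skipping of an exon from 89166682 to 89166814, which lies within intron 1 before the exon with the start codon, was listed in saline replicate 3 and in all 3 morphine libraries. First exons ending at 89165106 were listed in all 6 libraries, and ones ending at the end of exon 2, 89167204, in 5. The longest of the latter began at 89164840 in exon 1, so intron 1 was part of a listed first exon in at least 1 library.

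Clk3 had 2 retention events per saline library against 0, 4 and 1 in morphine, so that the morphine libraries lay on both sides of the saline value. The log2 ratio was -0.74 with a standard error of 0.83 (limma, adjusted p = 0.842; exact permutation p = 1, n = 3 each), and without morphine replicate 4 it was 0.06. Outside retention it had 2 events per saline library against 3, 3 and 2 in morphine, the extra ones being the last exons that run through introns 3 and 4. The log2 ratio of these was 0.32 (standard error 0.15, limma adjusted p = 0.912). Leaving out morphine replicate 6 gave groups with constant counts, a log2 ratio of 0.49 and an adjusted p of 1.33e-06, and leaving out morphine replicate 5 did the same for all events, with -0.36 and 0.000476. First exons ending at 57761716, the end of exon 2, were listed in 5 libraries and a last exon starting at 57751121 in all 6. The longest of these first exons began at 57765860 in exon 1, so intron 1 was part of a listed first exon in at least 1 library. Edc3 lies on the opposite strand over the 3′ end of Clk3, from 57708540 to 57752499, downstream of the kept introns.

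**Figure D3:**
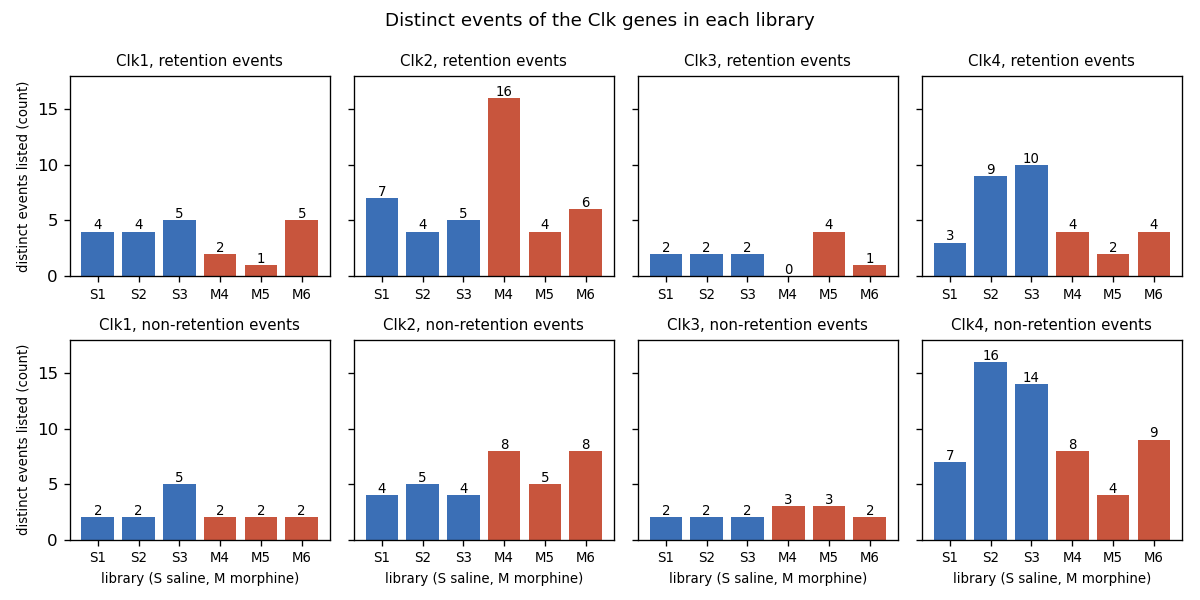
Number of distinct retention events (upper row) and other events (lower row) of each Clk gene in saline libraries S1 to S3 (blue) and morphine libraries M4 to M6 (red), with the count above each bar. Clk2 reaches 16 retention events in M4 alone, Clk4 is highest in S2 and S3 in both rows, and the groups overlap in every panel.

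The members did not move together. Their retention events summed to 16, 19 and 22 in the saline libraries and 22, 11 and 16 in the morphine libraries, whereas all retention events of those libraries numbered 7425, 5074 and 5010 and 7523, 6361 and 7018. Saline replicates 2 and 3 had the lowest totals of retention events over all genes and the most of Clk4. The median log2 ratio of retention events over all tested genes was 0.25, while those of Clk1, Clk3 and Clk4 were below 0 and that of Clk2 was above it. When every library was scaled to the same total of retention events, which takes that median to 0.01, the ratios were -1.06 for Clk1, 0.20 for Clk2, -0.89 for Clk3 and -1.19 for Clk4 (limma, adjusted p from 0.766 to 0.963).

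Among all genes, retention was uncommon. Any retention event was listed for 4907 genes, 30.8% of the total, at least 1 in every library for 4.49% of genes, and the same event in all 6 libraries for 1.93%. Clk1, Clk2 and Clk4 had at least 1 in every library, Clk3 in 5, and Clk1 and Clk4 had an event listed in all 6. Summed over libraries, Clk2 had 42 retention events, Clk4 32, Clk1 21 and Clk3 11, which placed them above 97.9%, 95.9%, 91.1% and 78.4% of the genes with any. Most events were still private to 1 library, 42 of the 61 distinct retention events of the members (68.9%) and 70.7% over all genes. Events whose retained exon had annotated boundaries made up 11 of the 61 distinct events in the members and 6.23% of those over all genes. These are shares of events, not of different exons, since the same exon can be listed under several event types. The annotated Clk2 exon from 89168695 to 89170115 was counted more than once in this way.

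**Figure D4:**
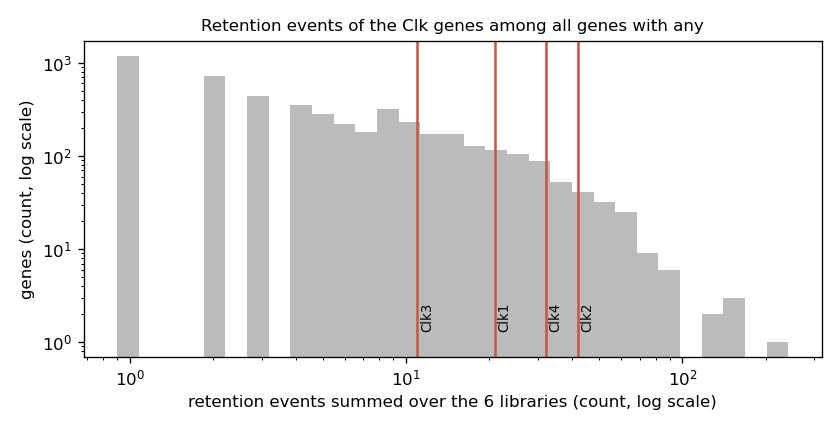
Retention events per gene summed over the 6 libraries (x axis, log scale) for the 4907 genes with any, with the number of genes on a log y axis and red lines at the Clk genes. Clk3 lies at 11, Clk1 at 21, Clk4 at 32 and Clk2 at 42 events, all in the upper part of the distribution.

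The genes whose retention events ran most like the summed retention of the 4 members over the 6 libraries, among 418 genes with at least 1 in every library and a mean of at least 3, were Trmu (Pearson r 0.937), Sirt7 (0.854), 4930503L19Rik (0.842), 9430015G10Rik (0.839) and Ryr3 (0.813). Trmu, a tRNA-modifying enzyme gene of mitochondria, had 3, 3 and 4 events in saline and 5, 1 and 3 in morphine, with its highest count in morphine replicate 4 and its lowest in morphine replicate 5. These correlations rest on 6 libraries with shared assembly and unknown depth and are a description only.

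Other kinases of splicing and of the related DYRK and HIPK families were listed for 15 of 16 genes, all but Dyrk4, and 8 had any retention event. Of 14 tested for all events, 1 had groups apart (3.07% over all tested genes), and of 7 tested for retention, 1 (5.96%). Dyrk1b, a kinase of muscle and cell cycle exit, had 11, 8 and 17 events in saline and 6, 6 and 5 in morphine, all saline libraries above (log2 ratio -0.96, standard error 0.30, limma adjusted p = 0.905). Srpk2, an SR protein kinase of neurons, had 0 retention events in all saline libraries and 1 in every morphine library (log2 ratio 1.58, limma adjusted p = 0.12), a count at which it passed the minimum only because the groups differ. Prpf4b, a kinase of the spliceosome, had 5, 5 and 5 retention events in saline and 2, 7 and 4 in morphine. At least 1 of them was listed in all 6 libraries. Cdk13, a transcription-linked kinase, had 7, 4 and 1 and 1, 2 and 4. Limma called 0 of these genes in either class, with 1 in each at an unadjusted p under 0.05. Over all tested genes, 3.19% passed that threshold for all events and 6.56% for retention. The median log2 ratio was 0 for all events and 0.41 for retention, against 0 and 0.25 over all genes.

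The 25 SR proteins and related splicing factors taken here as substrates of the kinases were all listed. Whether each is a substrate was not tested. Of them, 24 had any retention event and 8 had some in every library. The same event in all 6 was listed for 5, namely Srsf5, Srsf7, Srsf9, Srsf12 and Pnisr. For all events 2 of 25 had every saline library above every morphine library, against 1.43% of all tested genes. They were Luc7l with 5, 7 and 7 against 4, 4 and 3 and Luc7l2 with 7, 10 and 14 against 5, 6 and 5 (limma adjusted p = 0.905 for each). Both encode U1 snRNP-associated proteins. For retention 1 of 19 tested was apart, against 5.96% of all tested genes. It was Srrm2, a scaffold of nuclear speckles, with 0 in all saline and 1 in every morphine library, at the minimum as for Srpk2. Pnisr, a speckle protein, had 6, 2 and 4 retention events in saline and 6, 4 and 4 in morphine, and the 3′ splice site factor U2af1 had 4 in every saline library against 4, 3 and 1 in morphine. The median log2 ratio was -0.13 for all events and 0 for retention, against 0 and 0.25 over all genes. Limma called 0 in either class, with 2 and 1 genes at an unadjusted p under 0.05, which 3.19% and 6.56% of all tested genes passed.

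Of the phosphatases that act on SR proteins, 3 of 7 had any retention event, against 30.8% of all genes. In every library 0 of 7 had some, against 4.49% of all genes, and only 1 was tested for retention. In all events 0 of 7 had groups apart, against 3.07% of all tested genes. Ppp1cc, a catalytic subunit of protein phosphatase 1, had 1, 1 and 0 retention events in saline against 1 in every morphine library, and Ppp1r10, a nuclear targeting subunit, had 0 in all saline libraries against 1, 0 and 1 in morphine. Limma called 0 of 7 for all events, and 0 had an unadjusted p under 0.05, against 3.19% of all tested genes. Their median log2 ratio of all events was 0, as over all genes, but Ppp1ca, Ppp1cb, Ppp2ca and Ppp2cb had 2 events in every library.

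Of 17 other genes known for retained introns, 15 had any retention event, 10 had some in every library and 5 had the same event in all 6. Ogt, the O-GlcNAc transferase gene, and Arglu1, a splicing modulator gene, had exactly 1 in each library. Hnrnph1, an hnRNP gene, had 7, 6 and 6 events in saline and 10, 9 and 16 in morphine, the only gene of this list with groups apart in all events (log2 ratio 0.79, standard error 0.24, limma adjusted p = 0.905). Its retention events overlapped, with 1, 2 and 1 against 2, 3 and 4. Tia1, a stress granule RNA-binding protein gene, had the most, with 14, 12 and 16 against 15, 12 and 9, and Rbm39, a splicing factor gene, had 11, 2 and 7 against 6, 2 and 4. None of 14 tested was apart for retention, and limma called 0 in either class, with 1 gene for all events and 0 for retention at an unadjusted p under 0.05. Over all tested genes, 3.07% were apart for all events and 5.96% for retention, and 3.19% and 6.56% passed the unadjusted threshold. The median log2 ratio was -0.12 for all events and -0.15 for retention. Snrnp70, Son and Pnisr stand both here and among the SR proteins and related splicing factors.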

How the data were processed

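Each of the 6 deposited files lists alternative transcription and splicing events, 1 row each, per the file headers. The authors worked from assembled transcripts, per the series' design text; that they were assembled library by library is read from events that differ between the files. The column headed fpkm in the deposited files holds whole numbers from -24 to 0 and was not used. The assembler, event caller, build, depth and strand setting: not given in the sources used here. Rows with types ending in OFF, the partner of a skipping or retention event, were left out, and an event was distinct by gene, type, splice pattern and strand. Types IR, MIR, XIR and XMIR were retention. In IR and MIR rows the retained exon had the partner's outer boundaries in 100% of rows, in XIR and XMIR in 0%. Symbols came from a table that matched 15815 of 15939 gene IDs. Introns were numbered on 1 coding GENCODE M21 transcript per gene, and an intron counted as kept when a retained exon spanned it whole.

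The planned test for each class was limma 3.58.1 in R 4.3.3 on log2(events + 0.5) over genes with a mean of at least 0.5 event, with a mean-variance trend and Benjamini-Hochberg adjustment over all tested genes. It was checked on simulated counts of genes with many events and a large change, not on low or constant counts like many here. Exact two-sided permutation tests and non-overlap of the groups stood beside it. Members, lists and alternatives were chosen with earlier results of these data known. Named were the 4 members, list genes with groups apart, the 2 list genes with the most retention events, and the 5 genes of most similar retention. Genes named for constant events (Srsf5, Srsf7, Srsf9, Srsf12, Ogt, Arglu1) were chosen after their values were seen.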

Additional observations from a re-analysis of the deposited data

How the results depend on the processing

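Under the alternatives tried, 168 values of the members' log2 ratios were recomputed, and 2 reversed and 2 became called. Retention turned to -0.08 in Clk2 and to 0.06 in Clk3 without morphine replicate 4, and Clk3 was called for all events without morphine replicate 5 and for other events without morphine replicate 6, where both groups became constant. Clk3 had no direction for all events, with 0 over all 6 libraries, 0.19 without morphine replicate 4 or 6 and -0.20 with OFF types counted, and Clk1 went to 0 for other events without saline replicate 3. For retention, Clk1 ranged from -1.55 with single-intron types alone to -0.27 with each intron counted once, and Clk2 reached 1.77 with single-intron types alone. Leaving out each library in turn gave retention ratios from -1.31 to -0.38 in Clk1, from -0.08 to 0.86 in Clk2, from -1.53 to 0.06 in Clk3 and from -1.43 to -0.64 in Clk4. Leaving out each library gave 250 to 285 limma calls for all events, 264 to 297 for other events and 0 for retention, and non-overlap in 961 to 1102, 834 to 928 and 295 to 370 genes, since 3 against 2 libraries separate more easily. Equal-total scaling breaks ties and gave non-overlap in 818 genes for all events and 910 for other events. It took the share with morphine above from 78.1% to 51.6% of non-overlapping genes for retention and from 46.9% to 74.5% for other events. No paired analysis was possible because the groups share no replicate number. Depth is unknown, so no detection limit could be given.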
